A study of Mus musculus with 12 samples.

Results

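The comparison described here is that of nmMLCK-/- with wild-type mouse lung during spontaneous breathing (SB), in animals that were not ventilated. Its members were the 3 knockout SB arrays and the 3 wild-type SB arrays, chosen by their labels, 6 of the 12 arrays of the study. Each array, an Affymetrix mouse genome array on which a probe set is a group of short probes for 1 transcript, held total RNA of the lung. The labels give male C57BL/6 mice aged 8 to 12 weeks for all groups, and the series text gives 3 animals per group. The other 6 arrays, 3 of each genotype, came from animals ventilated for 4 h at 65 breaths per min and a high tidal volume to cause ventilator-induced lung injury (VILI). The sample labels put that volume at 40 ml/kg, whereas the series text puts it at 30 ml/kg. How the deletion was made, in which cells it acts and whether the wild-type animals were littermates are not stated in the labels. Values are log2 signals, so a difference of 1 is a 2-fold change. Differences are knockout minus wild type with their standard error (SE, n = 3 arrays per group). The SE of a gene rests on its spread pooled over all 12 arrays and drawn towards that of other genes. Since the VILI arrays differed less from each other, it can understate the spread of the SB arrays.

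Myosin light chain kinase phosphorylates the regulatory light chain of myosin II and so starts the contraction of actomyosin. Mylk encodes a short isoform, abundant in smooth muscle, and a long non-muscle isoform, nmMLCK, which is the main form in endothelium. In the lung, contraction driven by nmMLCK is known to open gaps between endothelial cells, and mice without it have been studied for their milder vascular leak in models of lung injury. The SB comparison asks how the lungs of the 2 genotypes differ before any injury.

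Of 12309 genes tested, 6 passed an adjusted p of 0.05 in limma, 0.0487% of those tested, with 2 higher (0.0162%) and 4 lower (0.0325%) in the knockout. Atp13a4 and Jchain rose, and Upk1b, Slc35a5, Clec1b and Gp1bb fell. The differences of most genes were small, since 96.9% lay under 0.5 in either direction. At least a 2-fold difference was measured for 57 genes, 22 higher and 35 lower, and the 6 called genes were among them. Without adjustment, 460 genes (3.74%) had a p under 0.05, of which 285 (2.32%) were higher and 175 (1.42%) lower. The arrays of the 2 groups did not overlap for 813 genes (6.6%), with the knockout arrays all above the wild-type arrays for 529 (4.3%) and all below for 284 (2.31%).

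The SB arrays differed from each other more than the VILI arrays did. The median standard deviation (SD) of a gene was 0.190 within wild-type SB and 0.173 within knockout SB, against 0.123 and 0.126 within wild-type and knockout VILI. The first principal component of the SB arrays, with 58.2% of their variance, did not separate the genotypes. It set wild-type replicate 3 (-38.1) and knockout replicate 2 (-32.1) apart from the other 4 arrays, which lay between 8.80 and 28.2. The second, with 13.0%, had the wild-type arrays at 9.89 to 15.1 and the knockout arrays at -12.7 to -11.3. The correlation between SB arrays was 0.989 to 0.997, and no 2 arrays held identical values. For a few genes wild-type replicates 1 and 2 stood apart instead. Their signals of Cd59a, Rab4a, Sox11, Wdfy1 and Fank1 lay outside the range of the other 10 arrays, those of both genotypes under VILI included, and the labels give no difference in origin between these 2 animals and the third.

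Mylk itself had 3 probe sets past the signal filter, and none was called. The brightest read 13.05, 12.98 and 12.98 in wild-type SB and 12.83, 12.80 and 12.71 in knockout SB, which is lower by 0.22 ± 0.08 (unadjusted p = 0.0183, adjusted p = 1 over all probe sets, limma). All 3 knockout arrays were below all 3 wild-type arrays. A second probe set read 12.99, 13.16 and 12.29 against 12.50, 11.69 and 12.17, a difference of -0.70 ± 0.26, and here the groups overlapped. The dimmest read 6.70, 6.55 and 4.67 against 5.51, 4.63 and 4.88, a difference of -0.97 ± 0.48, with wild-type replicate 3 inside the knockout range. The same 3 probe sets differed by -0.14, -0.15 and -0.74 between the VILI groups. The annotation does not tie the probe sets to the short or the long isoform, so their levels check the genotype labels only in part.

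Upk1b, a tetraspanin of the uroplakin family known from the surface of urothelium and mesothelium, fell the most. Its signal was 9.60, 9.41 and 9.34 in wild-type SB and 6.36, 7.31 and 6.30 in knockout SB. The groups were far apart, and knockout replicate 2 was the closest to wild type. The difference was -2.79 ± 0.28, a 6.93-fold lower level (adjusted p = 0.0131, limma). All 4 Upk1b probe sets past the filter were lower in the knockout, with differences of -2.34 to -3.36, and each passed the threshold over all probe sets.

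Slc35a5, which belongs to a family of Golgi nucleotide-sugar transporters, read 12.15, 11.87 and 12.14 in wild-type SB and 10.53, 10.57 and 10.65 in knockout SB. Both groups were tight and did not overlap. It fell by 1.47 ± 0.16 on the log2 scale, to a level 2.76-fold lower (adjusted p = 0.0131, limma). Its other probe sets past the filter differed by -0.87, -1.80 and -0.97, and none of these passed the threshold over all probe sets.

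Atp13a4, a P5-type ATPase of the family that moves cations and polyamines across membranes, read 5.87, 6.15 and 6.41 in wild-type SB and 7.90, 9.08 and 8.10 in knockout SB. Knockout replicate 2 was the highest, and the groups did not overlap. The rise was 2.22 ± 0.26, or 4.66-fold (adjusted p = 0.0161, limma). Only 1 Atp13a4 probe set passed the signal filter.

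Jchain, the joining chain that links IgA and IgM into polymers, read 7.02, 7.32 and 8.05 in wild-type SB and 10.17, 9.87 and 9.67 in knockout SB. Every knockout array was well above every wild-type array, of which replicate 3 was the highest. The rise was 2.44 ± 0.29, or 5.43-fold (adjusted p = 0.0161, limma).

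Clec1b encodes CLEC-2, the platelet receptor of podoplanin. It read 8.72, 8.84 and 8.92 in wild-type SB and 7.78, 7.53 and 7.80 in knockout SB, a fall of 1.12 ± 0.13 to a level 2.18-fold lower (adjusted p = 0.0161, limma). Gp1bb encodes a subunit of the platelet receptor of von Willebrand factor. It read 6.46, 6.80 and 7.30 in wild-type SB and 5.28, 4.63 and 5.33 in knockout SB, a fall of 1.77 ± 0.22 to a level 3.42-fold lower (adjusted p = 0.019, limma). Neither gene's groups overlapped, and knockout replicate 2 was the lowest array for both.

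Whether the 6 genes passed the threshold depended on single arrays, while the sizes of their differences moved little. Leaving out each of the 12 arrays in turn gave -3.12 to -2.61 for Upk1b, -1.56 to -1.42 for Slc35a5, 1.86 to 2.45 for Atp13a4, 2.22 to 2.73 for Jchain, -1.18 to -1.04 for Clec1b and -1.97 to -1.55 for Gp1bb. Upk1b, Slc35a5 and Atp13a4 passed in 9 of these 12 fits, Jchain in 8, Clec1b in 6 and Gp1bb in 3, and the highest adjusted p was 0.0727 for Jchain and 0.0714 for the other 5 (limma). Without wild-type SB replicate 1, wild-type SB replicate 2 or knockout SB replicate 3 none of the 12309 genes passed the threshold (355, 494 and 449 genes at an unadjusted p under 0.05). Without wild-type SB replicate 3 there were 16 calls and without knockout SB replicate 2 there were 13, both with all 6 genes among them. A fit of the 6 SB arrays alone, whose spread is not pooled with that of the VILI arrays, made 0 calls, with 300 genes at an unadjusted p under 0.05.

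**Figure D1:**
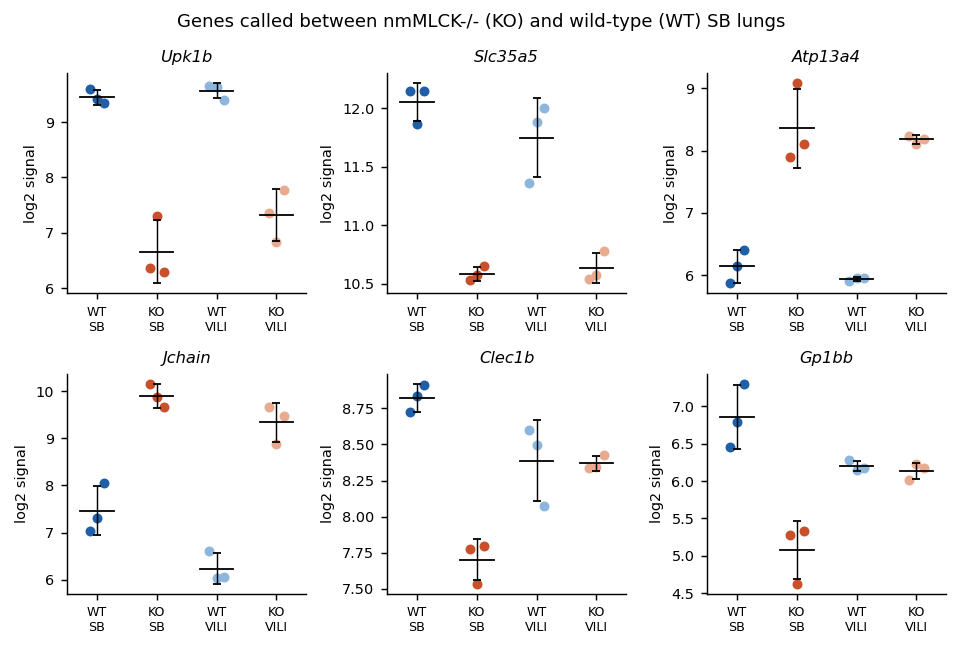
Log2 signal (vertical axis) of the 6 genes called in knockout SB (KO) against wild-type SB (WT), 1 point per array in each of the 4 groups, with bars for the group mean and SD (n = 3). Jchain and Atp13a4 are higher in all 3 knockout SB arrays, and Upk1b, Slc35a5, Clec1b and Gp1bb are lower in all 3.

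The VILI arrays, which share no array with the SB comparison but do share its estimate of spread, gave a second reading of the same genotype difference. Of the 6 genes, 4 were called there too. Upk1b differed by -2.24 (adjusted p = 0.023, limma) and Slc35a5 by -1.11 (adjusted p = 0.0372). Atp13a4 differed by 2.24 (adjusted p = 0.0168) and Jchain by 3.11 (adjusted p = 0.00347). Atp13a4 had an almost equal difference in both conditions. The platelet receptors read otherwise. Clec1b differed by -0.02 (adjusted p = 0.988) and Gp1bb by -0.07 (adjusted p = 0.964) between the VILI groups. The test of the difference between the 2 genotype effects gave 1.10 for Clec1b (unadjusted p = 0.000153, adjusted p = 0.345, limma) and 1.71 for Gp1bb (unadjusted p = 0.000244, adjusted p = 0.345). That test called 0 genes (619 at an unadjusted p under 0.05, smallest adjusted p = 0.244), so a genotype effect that differs between SB and VILI was not shown for either gene. Clec1b in wild-type VILI was at 8.07 to 8.60 and in knockout VILI at 8.34 to 8.43, between the 2 SB groups.

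Averaged over SB and VILI, the genotype difference was called for 11 genes, 0.0894% of those tested, 7 higher (0.0569%) and 4 lower (0.0325%). The list held Upk1b (-2.52, adjusted p = 0.000644, limma), Slc35a5, Atp13a4 and Jchain, and 7 genes that were not called in SB alone. Dubr, a long non-coding RNA, read 10.46, 10.52 and 11.38 in wild-type SB and 8.30, 9.50 and 8.69 in knockout SB (-1.96 ± 0.30, adjusted p = 0.0649). Clec16a, a regulator of autophagy, read 7.25, 7.43 and 7.37 against 8.71, 8.54 and 8.39 (1.19 ± 0.18, adjusted p = 0.0649). Neither gene's groups overlapped in SB, and the averages were -2.07 (adjusted p = 0.00345) for Dubr and 1.21 (adjusted p = 0.00392) for Clec16a. Adamts8, a secreted metalloprotease, was lower by 0.69 ± 0.10 in SB (adjusted p = 0.0586), and Svep1, a large extracellular matrix protein, was higher by 0.69 ± 0.11 (adjusted p = 0.0649). Their averages were -0.54 (adjusted p = 0.024) and 0.55 (adjusted p = 0.0311). Tdo2, which starts the breakdown of tryptophan, read 2.51, 3.02 and 2.59 against 5.58, 4.45 and 6.39. Its wild-type values lie below the filter level of 3.056, so its difference in SB (adjusted p = 0.0649) has no measured size. Knockout replicate 2 was the array nearest to wild type for Dubr, Svep1 and Tdo2. Without it these 3 genes were called in SB, Dubr at -2.29 (adjusted p = 0.0165), Svep1 at 0.77 (adjusted p = 0.0479) and Tdo2 with an adjusted p of 0.0126. Dropping the nearest array widens a difference by construction, so these calls add no support. When every array was dropped in turn, 1 fit in 12 called each gene. The highest adjusted p was 0.334 for Dubr and Svep1 and 0.325 for Tdo2 (limma). Igha is described with the B-lineage genes. Tbrg3 was called for its VILI difference of 0.90 (adjusted p = 0.00347), and in SB it differed by 0.06.

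Across all genes the 2 readings were weakly related. Of the 460 genes at an unadjusted p under 0.05 in SB, 56.3% had the same sign in VILI, against 54.1% of all genes. The correlation of the SB and VILI differences across genes, which are not independent replicates, was 0.152.

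**Figure D2:**
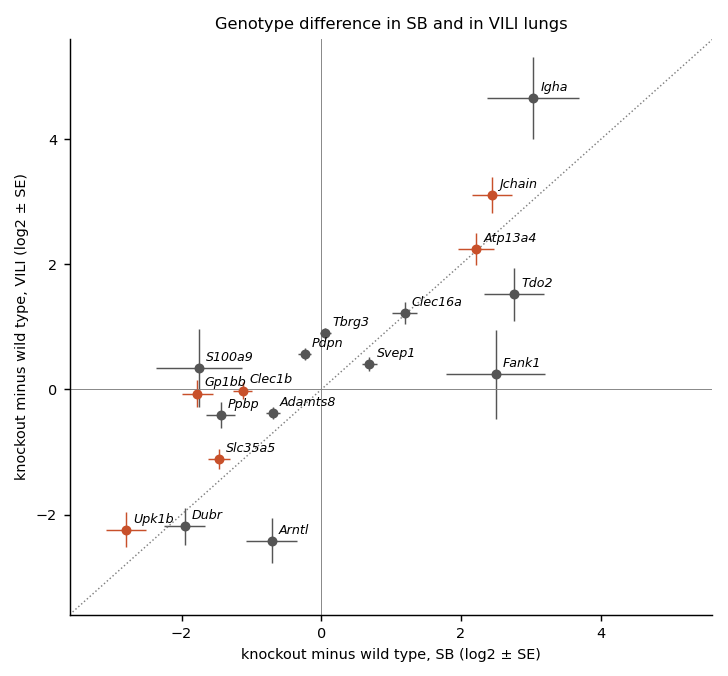
Knockout minus wild type in SB (horizontal, log2) against the same in VILI (vertical, log2), for genes named in the text, with bars of 1 SE, the 6 genes called in SB in red and a dotted line of equal differences. Upk1b, Slc35a5, Atp13a4 and Jchain lie near the diagonal, while Clec1b and Gp1bb have SB differences of -1.12 and -1.77 and VILI differences near 0.

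Platelets and the megakaryocytes that shed them, some of which reside in the lung, express the von Willebrand factor receptor, the fibrinogen receptor and the chemokines stored in platelet granules. Of the 7 listed platelet genes 5 were tested, 1 (Gp1bb) was called lower (0.0325% of all genes) and 4 had all knockout SB arrays below all wild-type SB arrays (2.31% of all genes). Their median difference was -0.59, against 0.02 for all genes tested. Ppbp, the granule chemokine from which NAP-2 is made, read 11.08, 11.28 and 11.63 in wild-type SB and 10.10, 9.42 and 10.16 in knockout SB. The groups were apart, and the difference of -1.44 ± 0.21 missed the threshold (adjusted p = 0.0576, limma). Without knockout replicate 2, its lowest array, Ppbp was called at -1.20 (adjusted p = 0.0479). It also passed in 6 of the 11 settings other than leaving out 1 array, among them both other scalings and array weights. Itga2b, the alpha chain of the fibrinogen receptor, read 5.19, 5.11 and 5.14 against 4.76, 4.54 and 4.66, a difference of -0.49 ± 0.13 (adjusted p = 0.577). Gp9, a partner of Gp1bb in its receptor, read 5.04, 4.43 and 4.15 against 3.96, 3.89 and 4.00, a difference of -0.59 ± 0.18 (adjusted p = 0.896). Pf4, a second granule chemokine, differed by -0.27, and its groups overlapped. Clec1b, described above, and Tubb1, the beta-tubulin of platelets, were not in the list. Tubb1 was chosen after its values were seen. It read 10.06, 10.39 and 10.02 against 9.15, 8.27 and 9.20, a difference of -1.28 ± 0.22 (adjusted p = 0.129).

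The per-array median of the 5 listed genes, centred on the 6 arrays, was 0.47, 0.21 and 0.37 in wild-type SB and -0.28, -0.36 and -0.25 in knockout SB. Their summed linear signal was 3463 to 4678 in wild-type SB and 1764 to 2119 in knockout SB, with no overlap. Leaving out 1 SB array moved the median difference between -0.79 and -0.47, and without both wild-type replicate 3 and knockout replicate 2 it was -0.76. Between the VILI groups the median was -0.08. In whole-lung RNA, fewer cells of a type and less RNA per cell cannot be told apart, and blood left in the vessels is part of the sample.

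The bases upstream of the genes are shown for Gp1bb, Clec1b and Ppbp, the platelet genes with the clearest separation of the groups, because megakaryocyte genes are known to be controlled by GATA and ETS factors. Each sequence is the 250 bases before the start of the RefSeq gene (GRCm38.p6), 5′ to 3′ on the gene's strand, with matches to GATAA or its reverse complement TTATC, and to GGAAG or its reverse complement CTTCC, in capitals. The Gp1bb sequence is chr16:18622404-18622653 (minus strand), that of Clec1b is chr6:129397047-129397296 (plus strand) and that of Ppbp is chr5:90768268-90768517 (plus strand).
Gp1bb: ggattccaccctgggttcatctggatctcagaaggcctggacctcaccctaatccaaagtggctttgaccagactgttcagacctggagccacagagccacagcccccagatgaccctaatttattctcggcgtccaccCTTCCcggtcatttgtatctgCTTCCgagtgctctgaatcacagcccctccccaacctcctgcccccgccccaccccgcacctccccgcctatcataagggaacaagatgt
Clec1b: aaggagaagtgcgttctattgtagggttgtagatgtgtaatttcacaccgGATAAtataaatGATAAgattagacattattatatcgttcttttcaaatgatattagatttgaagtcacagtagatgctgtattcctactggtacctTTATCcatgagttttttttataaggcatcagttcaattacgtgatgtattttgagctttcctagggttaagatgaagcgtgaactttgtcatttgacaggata
Ppbp: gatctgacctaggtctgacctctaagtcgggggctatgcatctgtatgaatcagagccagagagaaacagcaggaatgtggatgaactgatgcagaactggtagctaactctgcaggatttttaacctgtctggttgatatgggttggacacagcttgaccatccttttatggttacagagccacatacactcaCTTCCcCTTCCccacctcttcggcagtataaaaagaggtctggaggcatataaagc
Gp1bb and Ppbp held 2 GGAAG matches each and 0 GATAA matches, and Clec1b held 3 GATAA matches and 0 GGAAG matches. Of 32851 promoter windows of this length, 22.6% held GATAA, 64.1% held GGAAG and 13.2% held both. The 3 genes that were lower together did not share either of these exact motifs across all 3 windows. Other forms of the GATA and ETS sites were not searched. The Gp1bb window holds CTATC, the reverse complement of GATAG, which was not counted. A count of 0 therefore does not show that a window lacks a site for these factors.

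**Figure D3:**
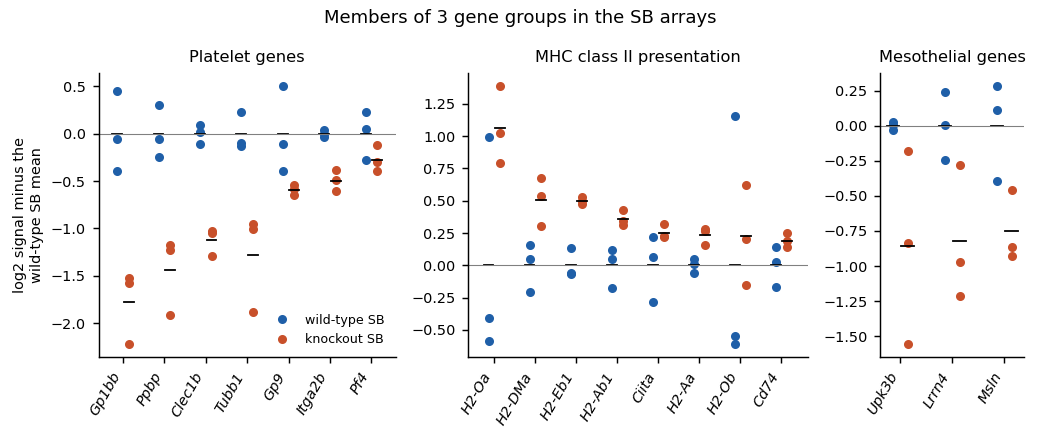
Log2 signal of each SB array minus the gene's wild-type SB mean (vertical axis) for platelet, MHC class II and mesothelial genes, with 3 wild-type points (blue), 3 knockout points (red) and bars for the group means. Gp1bb, Ppbp, Clec1b and Tubb1 show the widest gaps between the groups, at -1.77, -1.44, -1.12 and -1.28. Clec1b, called in these arrays, and Tubb1, chosen after its values were seen, are not in the platelet list. The groups overlap for Pf4 and for H2-Oa, Ciita, H2-Ob and Cd74.

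The B-lineage genes did not move as 1 group. Of 8 tested B and plasma cell markers, 1 (Jchain) was called higher (0.0162% of all genes). Jchain and Igha were the 2 with all knockout SB arrays above all wild-type SB arrays (4.3% of all genes). Igha, the heavy chain constant region of IgA, read 8.64, 9.08 and 11.06 in wild-type SB and 12.87, 12.55 and 12.45 in knockout SB. Wild-type replicate 3 was the closest to the knockout arrays. The difference of 3.03 ± 0.66 was not called (adjusted p = 0.364, limma). Without wild-type replicate 3 it was 3.76 and called (adjusted p = 0.0414), but dropping the closest array widens a difference by construction. When every array was dropped in turn, 1 fit in 12 called Igha, and the highest adjusted p was 0.976 (limma). Array weights also called it, but without both wild-type replicate 3 and knockout replicate 2 it was 3.80 and not called (adjusted p = 0.0837). The difference in VILI was 4.66 (adjusted p = 0.0372) and the average was 3.84 (adjusted p = 0.0105). All 3 Igha probe sets were higher, by 2.83 to 3.25. The other markers did not follow. Mzb1, a chaperone of secretory B-lineage cells, differed by 0.02. Cd79b and Cd79a, the signalling chains of the B cell receptor, differed by -0.92 and -0.72, and Ms4a1, which encodes CD20, by -0.79, all with overlapping groups. Wild-type replicate 3 was the highest array for each of these last 3 genes, for instance 10.13 for Ms4a1 against 7.12 to 8.69 in the other 5. The list's median difference was -0.19, and 0.07 without that array.

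MHC class II genes, which present peptides to helper T cells and are abundant on dendritic cells, macrophages and B cells, held no called member. All 8 tested members had a positive difference, with a median of 0.31 against 0.02 for all genes, 4 had knockout arrays all above wild type (4.3% of all genes), and 5 had an unadjusted p under 0.05 (2.32% of all genes were higher at that p). H2-Eb1 read 12.55, 12.35 and 12.36 in wild-type SB and 12.90, 12.95 and 12.92 in knockout SB. The knockout arrays were almost equal and lay above every wild-type array, and the difference was 0.50 ± 0.12 (adjusted p = 0.577, limma). H2-Ab1 differed by 0.36, H2-Aa by 0.24 and H2-DMa, a subunit of the peptide exchanger, by 0.51, each with groups apart. H2-Oa, which restrains that exchanger, differed by 1.07 and Cd74, the invariant chain, by 0.19, with overlap. All 8 were also positive between the VILI groups, with a median of 0.26.

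Of 8 tested monocyte and dendritic cell markers, 2 had all knockout SB arrays above all wild-type SB arrays (4.3% of all genes), and the differences of the list were positive for 4 and negative for 4. Cd209a, a lectin of dendritic cells, read 5.01, 5.19 and 5.24 in wild-type SB and 5.84, 7.14 and 6.31 in knockout SB, a difference of 1.28 ± 0.29 (adjusted p = 0.387, limma). Flt3, the cytokine receptor of dendritic cell precursors, differed by 0.38 ± 0.11 (adjusted p = 0.808). Between the VILI groups they differed by -0.30 and -0.03, and the list's median in SB was 0.01. Marco, a scavenger receptor of macrophages, read 3.94, 5.28 and 6.25 against 7.72, 6.13 and 6.51. Its groups overlapped, and the median of 11 alveolar macrophage markers was 0.18.

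Upk1b is also known from mesothelium, the cell sheet that covers the lung, and markers of that sheet are given beside it. Of 8 tested members of a list of mesothelial and adipose markers, which does not hold Upk1b, 0 were called, 4 differences were positive and 4 negative, and 3 had all knockout SB arrays below all wild-type SB arrays (2.31% of all genes). These were the mesothelial genes Upk3b, Lrrn4 and Msln. Upk3b, the uroplakin of mesothelium, read 10.75, 10.79 and 10.81 in wild-type SB and 9.23, 10.60 and 9.95 in knockout SB, a difference of -0.86. Lrrn4 read 9.03, 9.52 and 9.28 against 8.06, 8.99 and 8.30 (-0.82), and Msln, which encodes mesothelin, 9.95, 9.78 and 9.28 against 8.74, 9.21 and 8.81 (-0.75). The whole list had a median of -0.03, which was -0.57 without knockout replicate 1 and 0.28 without knockout replicate 3. Knockout replicate 2 was the closest to wild type for all 3, as it was for Upk1b. Between the VILI groups Lrrn4, Msln and Upk3b differed by -0.03, 0.33 and 0.05, whereas Upk1b differed by -2.24. The part of mesothelial content in the SB difference of Upk1b was not tested.

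The genes of the actomyosin apparatus on which the kinase acts, listed together with Mylk itself, showed no shared difference. Of 25 tested, 0 were called (1 higher and 1 lower at an unadjusted p under 0.05), and the median was 0.00. Knockout arrays were all above wild type for 2 and all below for 2 (4.3% and 2.31% of all genes). Myh10, the heavy chain of non-muscle myosin IIB, read 13.17, 13.13 and 13.37 in wild-type SB and 13.49, 13.60 and 13.39 in knockout SB. The groups were barely apart, the difference was 0.27 ± 0.10 (adjusted p = 1, limma), and that in VILI was 0.26. Ppp1cb, the catalytic subunit of myosin phosphatase, differed by 0.20 with groups apart. Myh9, the heavy chain of non-muscle myosin IIA, differed by 0.00, Rhoa by -0.07, its kinase Rock1 by -0.04, the cortical actin binder Cttn by 0.06, and the light chain Myl9 by -0.14, all with overlap. Mylk and Actg1 were the 2 with all knockout arrays below wild type, at -0.22 and -0.06. Mylk was also the 1 lower at an unadjusted p under 0.05. The 10 smooth muscle markers had a median of 0.01, and none had groups apart.

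Endothelial genes differed little as well. Of 24 endothelial markers and junction genes, 0 were called and the median was -0.09. Angpt1, the ligand of the Tie2 receptor, which stabilises vessels, read 10.72, 10.82 and 10.98 in wild-type SB and 11.12, 11.17 and 11.10 in knockout SB. It was the only 1 of the 24 with groups apart, by 0.29 ± 0.11 (adjusted p = 1, limma). Of all genes, 4.3% had knockout arrays all above wild type. Cdh5, the endothelial cadherin, differed by -0.31, Pecam1 by -0.18 and Tek, which encodes Tie2, by -0.06, all with overlap.

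Among epithelial genes, 2 of 10 alveolar type 1 markers, Pdpn and Ager, had all knockout SB arrays below wild type (2.31% of all genes). Their differences were -0.24 and -0.09. Pdpn encodes podoplanin, the ligand of the Clec1b product. It read 12.81, 12.85 and 12.81 in wild-type SB and 12.64, 12.42 and 12.70 in knockout SB, and between the VILI groups it differed by 0.56. The test of the difference between these effects gave 0.80 (unadjusted p = 0.000111, adjusted p = 0.345, limma). Napsa, a protease of type 2 cells that processes surfactant protein, differed by -0.23. It was 1 of 2 among the 9 type 2 markers with all knockout SB arrays below wild type. The medians were -0.09 for 10 type 1 markers and -0.13 for 9 type 2 markers. They were -0.11 for 10 club cell markers and -0.19 for 9 ciliated cell markers, of which 1 and 0 had all knockout arrays below wild type.

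The list with the lowest median was that of neutrophil markers, and it followed 1 array. All 12 tested members had negative differences, with a median of -1.29, 4 with all knockout arrays below wild type (2.31% of all genes), 5 at an unadjusted p under 0.05 (1.42% of all genes were lower at that p) and 0 called. The per-array medians were -0.28, 0.07 and 2.20 in wild-type SB and -0.44, -0.94 and -0.30 in knockout SB, so wild-type replicate 3 stood above all the others. S100a8, a subunit of calprotectin, read 11.91, 12.31 and 14.52 in wild-type SB and 11.34, 11.26 and 11.72 in knockout SB. S100a9, its partner, read 10.99, 11.36 and 13.96 against 10.30, 10.27 and 10.49. The groups did not overlap, but the differences of -1.47 and -1.75 were -0.67 and -0.82 without wild-type replicate 3. Clec4d, a lectin of myeloid cells, at -2.16, Ngp, a granule protein, at -1.93 and Slfn1 at -1.76 were among the 10 largest separated differences downward and were also highest in that array, without which they were -1.25, -1.16 and -0.90. Without wild-type replicate 3 the list's median was -0.60, without wild-type replicate 1 it was -1.97, and without both wild-type replicate 3 and knockout replicate 2 it was -0.43. Between the VILI groups it was 0.27.

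Several lists of inflammatory and stress genes likewise differed between single arrays more than between genotypes. Il1b was at 10.53 in wild-type replicate 3 and at 7.09 to 7.39 in the other 5 arrays, its difference of -1.11 was -0.03 without replicate 3, and the median of 10 cytokines was -0.02. The 21 immediate early genes, which respond within minutes to a stimulus, had a median of -0.34, with Jun at 14.54, 13.49 and 13.45 in wild-type SB and 13.33, 13.20 and 13.21 in knockout SB. Wild-type replicate 1 stood above the rest for Jun, and without it the list's median was -0.03. The heat shock genes Dnajb1 and Hspb1 differed by -0.94 and -0.57, in a list of 18 with a median of -0.10. In that list 2 members had all knockout arrays below wild type (2.31% of all genes), and 0 were called. Without both wild-type replicate 3 and knockout replicate 2, Dnajb1 and Hspb1 were at -0.75 and -0.57. Glucocorticoid-responsive genes had per-array medians of 0.51, 0.54 and -0.82 in wild-type SB and 0.36, -0.87 and 0.31 in knockout SB. NRF2 target genes, which answer oxidative stress, had 0.38, 0.61 and -0.83 against 0.47, -1.10 and 0.47. In both lists wild-type replicate 3 and knockout replicate 2 were low, and the medians of the genotype differences were -0.11 and 0.02. The sign depended on which of these arrays was left out. Without wild-type replicate 3 the glucocorticoid median was -0.53 and the NRF2 median -0.61, and without knockout replicate 2 they were 0.23 and 0.39. Of the clock genes, Clock differed by -0.30 and Arntl by -0.71, each with all knockout arrays below wild type (2.31% of all genes) and not called. The list of 14 had a median of 0.04, with 7 differences positive and 7 negative. Its largest fall, Nfil3 at -1.14, had overlapping groups. Arntl, which encodes BMAL1, differed by -2.42 in VILI (adjusted p = 0.0408, limma).

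**Figure D4:**
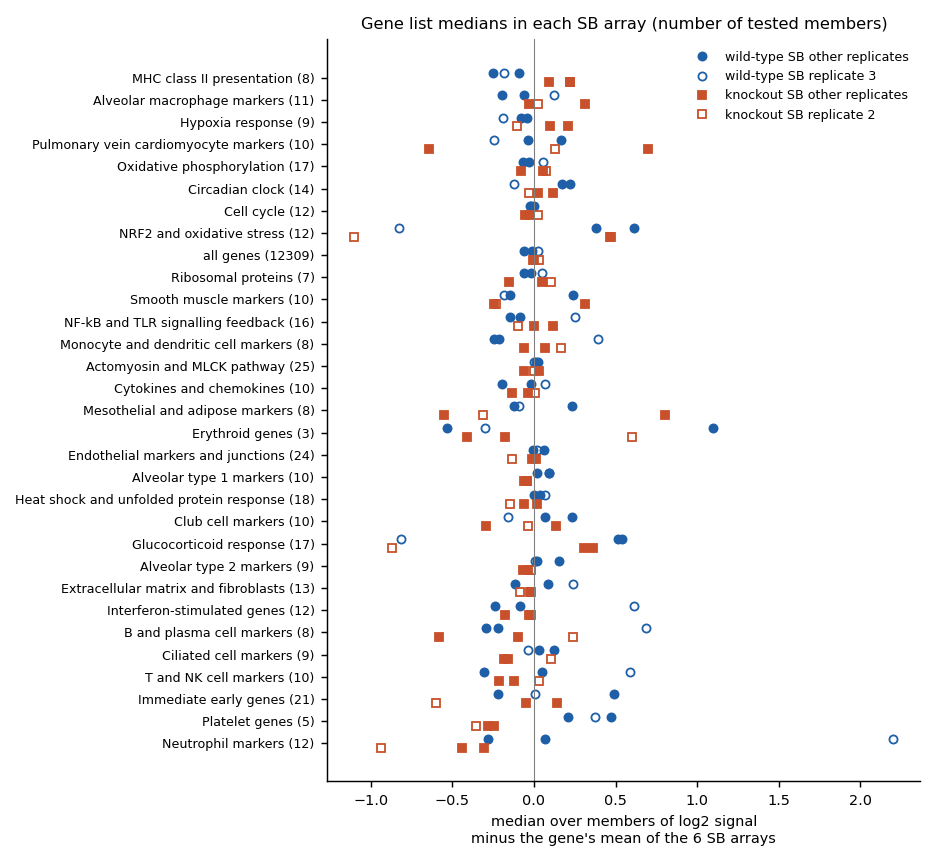
Median over each list's tested members (number in brackets) of the log2 signal minus the gene's mean of the 6 SB arrays (horizontal axis), 1 point per SB array, with open symbols for wild-type replicate 3 and knockout replicate 2. The neutrophil list is highest in wild-type replicate 3 (2.20), and the NRF2 and glucocorticoid lists are lowest in the 2 open arrays. The medians of the platelet, MHC class II, alveolar type 1, alveolar type 2 and, narrowly, neutrophil lists do not overlap between the genotypes.

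Some genes of the largest separated differences belonged to no list. Phex, an endopeptidase that regulates phosphate, read 6.16, 6.00 and 6.10 in wild-type SB and 7.19, 7.51 and 7.47 in knockout SB. Both groups were tight and did not overlap (1.30 ± 0.20, adjusted p = 0.0649, limma). Cyp1a1, the classical target of the aryl hydrocarbon receptor, read 8.47, 8.60 and 9.66 against 10.32, 9.86 and 10.66 (1.37 ± 0.49, adjusted p = 1). Gprc6a, a receptor that senses amino acids, differed by 1.15 ± 0.34 (adjusted p = 0.795). In VILI these 3 genes differed by 0.20, 0.60 and -0.41.

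Mylk lies on chromosome 16 (RefSeq GRCm38.p6), and so did 4 of the 6 called genes, Upk1b, Slc35a5, Atp13a4 and Gp1bb. That chromosome holds 396 of the tested genes, 3.22% of the 12289 with a position. It also held 5 of the 11 genes called in the average over SB and VILI, where Dubr and Clec16a join Upk1b, Slc35a5 and Atp13a4, and 9 of the 50 genes with the smallest p in SB. Counted in tested genes along the chromosome, Upk1b lay 36, Slc35a5 52 and Dubr 69 genes from Mylk towards higher coordinates. Atp13a4 lay 42, Gp1bb 91 and Clec16a 162 genes away towards lower coordinates. Directions were mixed, since Atp13a4 and Clec16a were higher and the other 4 lower in the knockout. Snx29, a sorting nexin on the same chromosome that was chosen after its values were seen, lay 155 genes from Mylk and differed by -1.37 (adjusted p = 0.175, limma).

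The 40 tested genes next to Mylk, 20 on either side, had a median difference of -0.00 and a range of -1.12 to 0.83, and none was called. Tctex1d2, a dynein light chain, read 9.09, 9.40 and 9.59 in wild-type SB and 9.84, 10.42 and 10.30 in knockout SB (0.83 ± 0.17, adjusted p = 0.25, limma), and Fyttd1, an mRNA export factor, was at -0.35. They were the only 2 of the 40 at an unadjusted p under 0.05. On the whole chromosome 30 of 396 genes were, 16 higher and 14 lower, against 3.74% of all genes tested. The labels do not say in which strain the deletion was made or how far it was backcrossed. The part of linked sequence in these differences, including changes under the probes, was not tested.

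Several genes with large differences split the wild-type arrays, and all of them but Fank1 overlapped between the genotypes. They come from a list of 8 genes, 7 of them tested, that was drawn from earlier results of these same arrays, so their pattern is a description. Sox11, a developmental transcription factor, read 3.66, 3.60 and 9.25 in wild-type SB and 8.59, 9.28 and 8.35 in knockout SB. Fank1 read 5.17, 5.68 and 8.71 against 8.80, 9.16 and 9.10. Wild-type replicates 1 and 2 were low for both genes, and replicate 3 was close to the knockout. For Fank1 replicate 3 still lay below all 3 knockout arrays, the only such case among the 7 tested genes (4.3% of all genes). Wdfy1 read 11.34, 11.51 and 9.58 against 9.64, 9.39 and 9.89, and Cd59a, a regulator of complement, 10.22, 10.33 and 8.53 against 8.70, 8.88 and 8.63. For these the same 2 wild-type arrays were high. Rab4a, at 8.10, 8.12 and 7.18 against 7.16, 7.15 and 7.19, had this pattern too. The wild-type VILI arrays, at 8.67 to 8.78 for Cd59a and 7.01 to 7.23 for Rab4a, resembled wild-type SB replicate 3 and the knockout. None of the 5 genes was called over all SB arrays, and Sox11, for example, differed by 3.24 ± 1.19 (adjusted p = 1, limma). Without both wild-type replicate 3 and knockout replicate 2, 19 genes were called, 5 of them among the original 6. Sox11, Fank1, Wdfy1, Cd59a and Rab4a were all among the 19. That fit keeps only the 2 wild-type SB arrays that stood apart for these genes. Their calls thus follow from the choice of arrays and add no support. Nnt, the mitochondrial transhydrogenase, followed another pattern, at 11.78, 12.06 and 10.60 in wild-type SB and 10.68, 11.67 and 10.75 in knockout SB.

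A second set of genes was low in wild-type replicate 3 and knockout replicate 2 and high in the other 4 arrays. Hmox1, the haem-degrading enzyme induced by oxidative stress, read 10.98, 11.72 and 7.87 in wild-type SB and 11.97, 7.44 and 11.64 in knockout SB. Slc7a11, the cystine transporter, read 9.10, 9.80 and 6.24 against 9.88, 5.52 and 9.98. Doc2b, a calcium sensor of exocytosis, read 7.27, 7.31 and 1.27 against 6.85, 1.21 and 6.92. Slc7a5, Mthfd2 and Cldn4 were lowest in the same 2 arrays. The spread inside each genotype was larger than the difference between genotypes for all 6 of these genes. Other genes stood out in 1 array, such as Kap at 9.17 in knockout replicate 3 against 3.23 to 4.25 in the other 5, Cidea at 10.21 and Pck1 at 11.86 in knockout replicate 1, and the erythroid gene Alas2 at 9.69 in wild-type replicate 1. An SD over 1 was measured for 258 genes within wild-type SB and 168 within knockout SB.

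**Figure D5:**
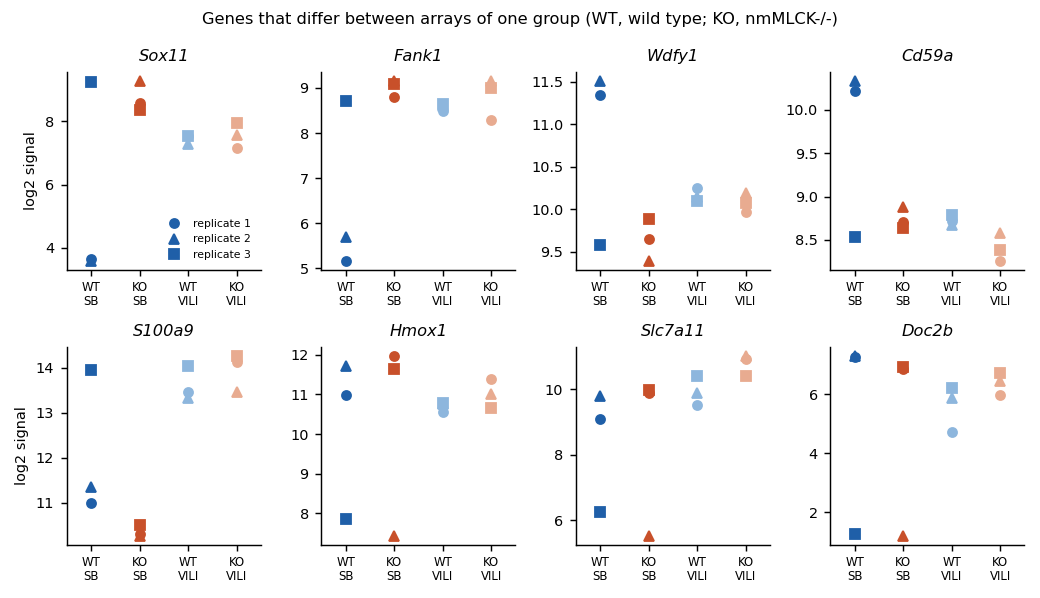
Log2 signal (vertical axis) of 8 genes that differ between arrays of 1 group, in the 4 groups of wild-type (WT) and knockout (KO) lungs, with the symbol giving the replicate. Wild-type replicate 3 lies with the knockout arrays for Sox11, and wild-type replicate 3 and knockout replicate 2 are the low arrays for Hmox1, Slc7a11 and Doc2b.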

How the data were processed

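Lung RNA of 12 mice was hybridised to 1 array each. The authors deposited log2 signals per probe set, and their processing notes name MAS5 and GCRMA without version or role. The genome build was not given in the sources used here. Values were already scaled between arrays, which hides any difference in total RNA. Of 45037 probe sets, 34945 had 1 symbol in the platform annotation. Those with a mean under the 40th percentile (3.056) were left out, which kept 22443, and the brightest per gene was used (12309 genes). Group means of all 12 arrays were fitted with limma 3.58.1 (lmFit, eBayes) in R 4.3.3, with Benjamini-Hochberg adjusted p under 0.05. The code was tested on simulated data. The precision is limited by 3 arrays per group, and the median SE of a difference was 0.148. No label says that arrays are separate animals beyond the series text, so p-values measure the spread between arrays.

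Genes were named by rule: all called genes, the 10 largest separated differences each way, up to 4 members of each list by p, Mylk probe sets, the most variable genes, the 10 smallest p of the average and the neighbours of Mylk. Members that the rule leaves out are named as examples of their list. Comparisons, members and the 31 lists were chosen with earlier results of these data known. Replicate numbers did not pair the arrays (correlations of same-numbered deviations 0.398, -0.628 and -0.373). Alternatives covered scaling, filter, probe set choice, array weights, variance model, replicate block and left-out arrays.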

Additional observations from a re-analysis of the deposited data

Results flagged for a closer look

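Probe sets without exactly 1 gene symbol were not part of the gene comparison. Over all 27022 probe sets past the filter, 12 were called in knockout SB against wild-type SB (limma), and 3 of them were among the 4579 without exactly 1 symbol. Probe set 1453540_at read 10.20, 10.04 and 9.47 in wild-type SB and 6.16, 4.64 and 5.79 in knockout SB, a difference of -4.38 (adjusted p = 0.00147), and it differed by -2.27 in VILI (adjusted p = 0.0628). Probe set 1425583_at read 2.68, 2.67 and 2.68 in wild-type SB and 9.16, 6.42 and 9.66 in knockout SB. Its fitted difference was 5.74 (adjusted p = 0.02) and that in VILI 6.64 (adjusted p = 0.00606). Since the wild-type values are under the filter level, this fitted number gives no measured size. Probe set 1435710_at read 6.81, 6.84 and 6.75 against 6.17, 6.19 and 6.19, a difference of -0.62 (adjusted p = 0.0333), and it differed by 0.05 in VILI (adjusted p = 0.899).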

How the results depend on the processing

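The SB comparison called 6 genes and the average over SB and VILI 11. A fit of only the 6 SB arrays gave 0 SB calls. The replicate block gave 0 SB calls over 12 arrays (440 genes at an unadjusted p under 0.05) and 0 over 6 (208 genes), and 8 for the average, 6 of them among the 11. Array weights gave 26 and 46, and leaving out the third wild-type SB array together with the second knockout SB array gave 19 and 29. The other settings of scaling, filter, probe sets and variance gave 4 to 9 SB calls and 11 to 15 for the average. Leaving out 1 array gave 0 to 16 SB calls, and 7 to 17 for the average, with 17 without replicate 3 of wild-type SB or replicate 2 of knockout SB and 7 without knockout VILI replicate 2 or 3. Why the counts moved was not tested. Of 1638 recomputed values of 72 genes, 1 reversed, that of Tbrg3 (0.06), which was -0.012 without wild-type SB replicate 2 and at most 0.10 without another array. Calls were lost in 50 and gained in 48. Of 620 recomputed list medians 32 moved beyond the spread of their arrays. The 60th percentile filter put the platelet median at -0.86, and array weights at -0.90. With 3 arrays per group, small differences could not be told from the spread.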
